A study of Rattus norvegicus with 3 samples.

Results

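Proteoglycan core protein genes were read in single cells from diabetic rat skin wounds. The genes were decorin (Dcn, ENSRNOG00000004554), lumican (Lum, ENSRNOG00000004610), biglycan (Bgn, ENSRNOG00000055962), fibromodulin (Fmod, ENSRNOG00000003183), osteoglycin (Ogn, ENSRNOG00000047786), asporin (Aspn, ENSRNOG00000050431), Prelp (ENSRNOG00000003120), versican (Vcan, ENSRNOG00000029212) and glypican 3 (Gpc3, ENSRNOG00000060179). They are 9 of the 32883 features that each matrix lists, chosen by symbol, and each of them had a row. The animals were male SD rats of wild type genotype, injected with 65 mg/kg streptozotocin, a toxin of pancreatic beta cells, at 7 to 9 weeks of age, and used if blood glucose was over 16.7 mM. They were 8 to 10 weeks old when skin was taken. Full-thickness skin defects of 15 mm received a CO-releasing gel of hyaluronic acid (the CO hydrogel library), the gel of hyaluronic acid without CO release (the hydrogel library) or no dressing, labelled untreated (the untreated library), and the tissue was taken on day 7. All 3 groups thus share the streptozotocin and the wound, and no group of rats without diabetes is compared here. There was 1 library per group, and the labels do not say how many animals each one held. No difference between groups could be tested, no p-value is given, and each interval is a 95% interval that covers counting error only.

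Proteoglycans are proteins that carry chains of sulfated sugars. The small leucine-rich ones are secreted, sit on collagen fibrils and set their spacing and diameter, and several bind TGF-beta. Decorin, biglycan and asporin form one class of them, lumican, fibromodulin and Prelp another, and osteoglycin is placed in neither. Versican is a large chondroitin sulfate proteoglycan that binds hyaluronan and is abundant in provisional wound matrix, and monocytes make it too. Glypican 3 is held on the cell surface by a lipid anchor, carries heparan sulfate and modulates Wnt and Hedgehog signals.

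The matrices held 15376 barcodes and 109718517 UMIs for the CO hydrogel library, 15442 and 109148721 for the hydrogel library, and 12883 and 78233883 for the untreated library. After filtering and removal of likely doublets 13034, 12438 and 10637 cells remained in the CO hydrogel, hydrogel and untreated libraries. Any 2 libraries shared between 364 and 600 barcode sequences. Clusters were named from marker genes that include none of the 9 proteoglycan genes, and the 9 were left out of the genes that define clusters. Fibroblast-like cells numbered 4874 in the CO hydrogel, 1653 in the hydrogel and 1180 in the untreated library, or 37.4%, 13.3% and 11.1% of the cells kept in those libraries, and their median UMI count was 9252 in the CO hydrogel, 13720 in the hydrogel and 16898 in the untreated library. All 8 listed fibroblast markers were above 10 CPM in the fibroblast-like cells of each library. CPM is the UMIs of a gene per 1000000 UMIs of the cell class in a library, and as 3' tags are counted once per transcript it needs no scaling for length. Since levels are shares of RNA, fewer cells of a type within a class and less RNA of a gene per cell cannot be told apart.

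The fibroblast-like cells fell into 4 subgroups, each assigned by its score on a marker list and called by genes among its 10 top genes. Dpp4 Pi16 fibroblasts, led by genes of fascial and adventitial progenitor cells, made up 16.6% of fibroblast-like cells in the CO hydrogel library, 7.14% in the hydrogel library and 49.5% in the untreated library. Cxcl13 Sfrp4 fibroblasts made up 47.6% in the CO hydrogel, 42.5% in the hydrogel and 28.6% in the untreated library. Tnn Prss35 fibroblasts, led by the matricellular gene Tnn and also by the granzyme gene Gzmb, made up 18.9% in the CO hydrogel, 40.7% in the hydrogel and 18.0% in the untreated library. Cilp Eln fibroblasts made up 16.8% in the CO hydrogel, 9.68% in the hydrogel and 3.90% in the untreated library, where they were 46 cells, too few for a ratio. Free RNA in droplets gives UMIs in cells that do not make a gene. The level in neutrophil-like cells of the same library was used as that background, and a gene was compared in a class only where it exceeded this level more than 2 times in both libraries. Median UMIs per neutrophil-like cell were 1309 in the CO hydrogel, 1806 in the hydrogel and 1951 in the untreated library. Per mural-like cell they were 5142, 7049 and 9180 in those libraries. Free RNA may be a smaller share of the UMIs of larger cells. A gene that fails this rule may therefore still be made in the class, which was not tested. In neutrophil-like cells Dcn stood at 494 CPM in the CO hydrogel library, 174 in the hydrogel library and 206 in the untreated library.

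**Figure D1:**
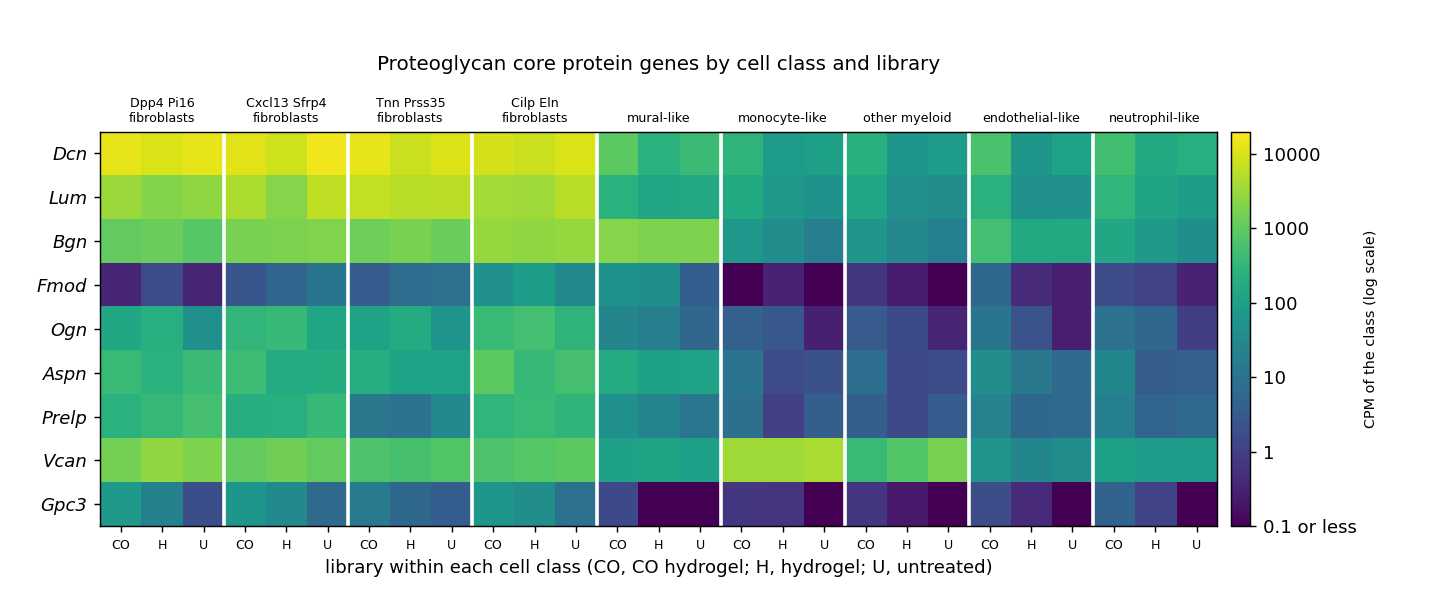
Levels of the 9 genes (rows) in cell classes and libraries (columns: CO, CO hydrogel; H, hydrogel; U, untreated), as CPM on a logarithmic colour scale with the lowest colour at 0.1 CPM or less. Dcn and Lum are bright in the 4 fibroblast subgroups, Bgn also in mural-like cells, and Vcan also in monocyte-like and other myeloid cells.

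Where the transcripts lay differed between the genes. Dcn, Lum, Ogn, Prelp and Gpc3 were fibroblast transcripts in all 3 libraries. Of all Dcn UMIs fibroblast-like cells held 94.1% in the CO hydrogel library, 94.7% in the hydrogel library and 88.9% in the untreated library. Of all Gpc3 UMIs they held 96.3% in the CO hydrogel library, 94.7% in the hydrogel library and 93.8% in the untreated library. Bgn and Aspn were shared with mural-like cells, that is, pericytes and smooth muscle cells of vessels. For Aspn the mural-like share was 5.26% in the CO hydrogel library, 16.0% in the hydrogel library and 8.96% in the untreated library. Fmod was the gene with the largest mural-like share in the treated wounds, 38.5% in the CO hydrogel library and 50.3% in the hydrogel library, against 14.6% of only 157 Fmod UMIs in the untreated library. Vcan had its largest holder change between libraries. Of all Vcan UMIs fibroblast-like cells held 76.0% in the CO hydrogel library, 38.4% in the hydrogel library and 40.8% in the untreated library, and all myeloid clusters together held 18.1% in the CO hydrogel library, 57.3% in the hydrogel library and 51.4% in the untreated library. Such shares depend on how many cells of a class a library held as well as on their levels. Fibroblast-like cells were 37.4% of cells kept in the CO hydrogel, 13.3% in the hydrogel and 11.1% in the untreated library. Their Vcan level was 990 CPM in the CO hydrogel, 1058 in the hydrogel and 1455 in the untreated library.

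For all fibroblast-like cells, the comparison of the CO hydrogel with the hydrogel asks what CO release adds, and each comparison with the untreated wound asks what the dressing as a whole goes with. The most abundant of the 9 was Dcn, with 11614 CPM in the CO hydrogel library, 7992 in the hydrogel library and 12963 in the untreated library. Next came Lum, with 4585 CPM in the CO hydrogel library, 3701 in the hydrogel library and 4122 in the untreated library. Between the CO hydrogel and hydrogel libraries 2 of the 9 genes, Aspn and Gpc3, were at least 2-fold apart, both higher with CO, and 3.65% of 10615 measured genes were that far apart either way. Between the CO hydrogel and untreated libraries 3 of the 9 were, with Ogn and Gpc3 higher and Prelp lower in the CO hydrogel library, against 9.11% of 10470 genes. Between the hydrogel and untreated libraries 4 of the 9 were, with Fmod, Ogn and Gpc3 higher and Prelp lower in the hydrogel library, against 7.35% of 9780 genes. The median log2 ratio of all measured genes was -0.01 for the CO hydrogel over the hydrogel, 0.15 for the CO hydrogel over untreated and 0.14 for the hydrogel over untreated. The last 2 comparisons share the untreated library. With the subgroup mix held equal across libraries, 2 genes, Ogn and Gpc3, stayed past 2-fold between hydrogel and untreated, and the log2 ratios of Fmod (0.39) and Prelp (-0.59) came inside 2-fold.

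**Figure D2:**
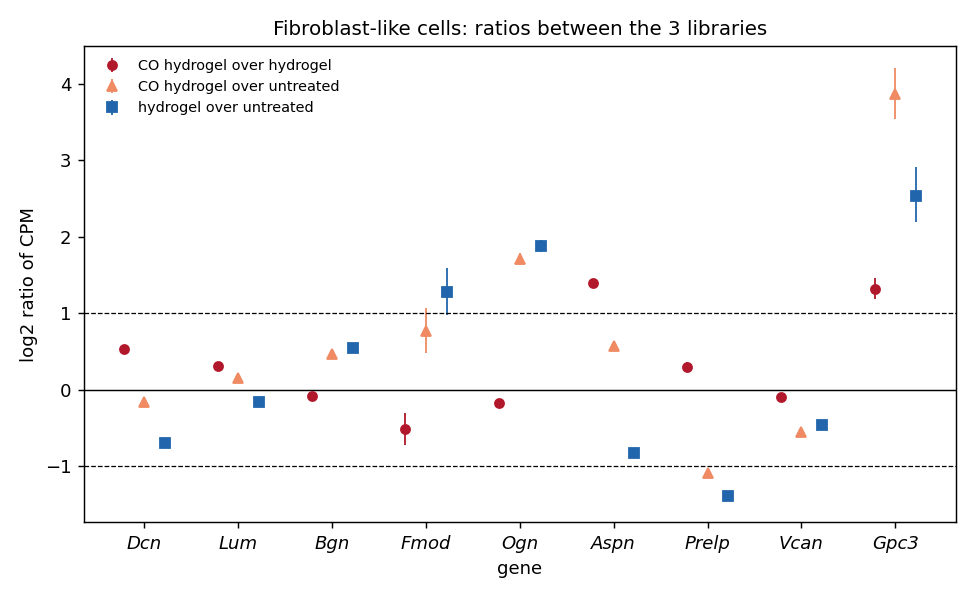
Log2 ratios of CPM between libraries in fibroblast-like cells for the 9 genes, with 95% intervals for counting error as bars (many are smaller than the points) and dashed lines at 2-fold. Gpc3 lies above the upper line in all 3 comparisons, Ogn in both comparisons with untreated, Aspn only for the CO hydrogel over the hydrogel, and Prelp below the lower line in both comparisons with untreated.

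The promoters of the genes with the widest differences in fibroblasts are shown because these genes were past 2-fold in fibroblast-like cells: Gpc3 and Ogn were lowest in the untreated library and Aspn lowest in the hydrogel library. The sequences come from RefSeq, build GRCr8, while the matrices were made on rn6, so the coordinates given are not those of the matrices' build. Promoters of 6 of the 9 genes were matched in the RefSeq table used. Each window is the 250 bases before the gene's start, written 5′ to 3′ in the direction of the gene, all on the minus strand: chrX:137157599-137157848 for Gpc3, chr17:15258996-15259245 for Ogn and chr17:15310470-15310719 for Aspn. Capitals mark matches, on either strand, to 5 short motifs, namely the TATA box, CCAAT box, GC box, AP-1 and TEAD motifs, and a match is only a run of letters.
Gpc3: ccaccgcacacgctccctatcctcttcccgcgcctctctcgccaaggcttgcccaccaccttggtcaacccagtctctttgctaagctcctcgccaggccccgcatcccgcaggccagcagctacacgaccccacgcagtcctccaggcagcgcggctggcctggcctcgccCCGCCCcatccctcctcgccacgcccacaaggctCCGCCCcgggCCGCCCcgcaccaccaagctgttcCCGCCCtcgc
Ogn: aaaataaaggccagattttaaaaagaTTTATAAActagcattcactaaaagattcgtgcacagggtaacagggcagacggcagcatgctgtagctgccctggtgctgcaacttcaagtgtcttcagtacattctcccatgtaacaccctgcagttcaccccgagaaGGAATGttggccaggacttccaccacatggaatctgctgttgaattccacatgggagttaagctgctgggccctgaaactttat
Aspn: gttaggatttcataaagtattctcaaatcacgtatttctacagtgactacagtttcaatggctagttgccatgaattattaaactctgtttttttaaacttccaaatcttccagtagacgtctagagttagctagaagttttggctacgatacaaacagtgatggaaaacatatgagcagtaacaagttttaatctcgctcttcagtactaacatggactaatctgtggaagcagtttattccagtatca
The Gpc3 window has 71.6% G and C and 4 matches to the GC box, GGGCGG, all on the opposite strand. The GC box occurs in 30.5% of 33469 such windows. The Ogn window has 46% G and C, overlapping matches to the TATA box, TATAAA, on both strands, the far one beginning 224 bases before the start, and a match to the TEAD motif, GGAATG, 84 bases before it. Of all windows 12.9% hold a TATA box match and 12.1% a TEAD match. The Aspn window has 34.8% G and C, against a median of 51.2% over all windows, and no match to the 5 motifs. The AP-1 motif, TGANTCA, found in 6.34% of windows, and the CCAAT box, CCAAT, found in 34.02%, have no match in these 3 windows. In the RefSeq gene order Ogn and Aspn lie on both sides of Omd on chromosome 17, Dcn and Lum are neighbours on chromosome 7, and Prelp and Fmod are neighbours on chromosome 13.

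Within subgroups the members past 2-fold were counted among those above background. In Dpp4 Pi16 fibroblasts 1 of 8 was past it for the CO hydrogel over the hydrogel (Gpc3), against 4.79% of measured genes, 3 of 8 for the CO hydrogel over untreated (Ogn, Prelp, Gpc3), against 6.52%, and 1 of 7 for the hydrogel over untreated (Ogn), against 6.97%. Cxcl13 Sfrp4 fibroblasts had 2 of 8 for the CO hydrogel over the hydrogel (Lum, Aspn), against 4.11%, and 3 of 8 for the CO hydrogel over untreated (Ogn, Aspn, Gpc3), against 8.34%. For the hydrogel over untreated they had 4 of 9 (Lum, Fmod, Ogn, Gpc3), against 6.32%. Tnn Prss35 fibroblasts had 2 of 8 for the CO hydrogel over the hydrogel (Fmod, Gpc3), against 2.53%. For the CO hydrogel over untreated they had 1 of 7 (Gpc3), against 6.06%, and for the hydrogel over untreated 1 of 7 (Ogn), against 4.7%. Cilp Eln fibroblasts had 1 of 9 for the CO hydrogel over the hydrogel (Aspn), against 3.7%. Some of these calls came inside 2-fold under other settings. In Cxcl13 Sfrp4 fibroblasts Ogn for the CO hydrogel over untreated kept its call in 5 of 9 alternatives (lowest log2 ratio 0.83), and Lum for the CO hydrogel over the hydrogel likewise in 5 of 9. Prelp in Dpp4 Pi16 fibroblasts for the CO hydrogel over untreated, Aspn in Cxcl13 Sfrp4 fibroblasts in both its comparisons and Ogn in Tnn Prss35 fibroblasts for the hydrogel over untreated kept it in 8 of 9. The 2 Fmod calls turned direction under 2 of 8 alternatives each. The Gpc3 calls and the Cilp Eln call of Aspn kept theirs in every alternative that gave a value, as did Ogn in Dpp4 Pi16 fibroblasts, and Ogn and Lum in Cxcl13 Sfrp4 fibroblasts for the hydrogel over untreated.

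Gpc3 showed the widest differences of the 9. In fibroblast-like cells it stood at 52.9 CPM in the CO hydrogel library (interval 50.8 to 55.0), 21.1 CPM in the hydrogel library (interval 19.3 to 23.1) and 3.63 CPM in the untreated library (interval 2.86 to 4.55), so the 3 intervals were apart and the order was CO hydrogel, hydrogel, untreated. The level with CO was 2.5-fold above the hydrogel (log2 ratio 1.32, interval 1.18 to 1.47) and 14.6-fold above untreated (log2 ratio 3.86, interval 3.53 to 4.21), and the hydrogel was 5.81-fold above untreated. These rest on 2450 UMIs in the CO hydrogel, 485 in the hydrogel and 76 in the untreated library. The order was the same in each of the 4 subgroups. In Dpp4 Pi16 fibroblasts Gpc3 was at 73.2 CPM in the CO hydrogel library, 20.9 in the hydrogel library and 1.85 in the untreated library, the untreated value coming from 21 UMIs in 584 cells. In Cxcl13 Sfrp4 fibroblasts the levels were 59.9 CPM in the CO hydrogel library, 33.4 in the hydrogel library and 6.85 in the untreated library. In Tnn Prss35 fibroblasts, the lowest subgroup in both treated libraries, they were 14.7 CPM in the CO hydrogel library, 6.33 in the hydrogel library and 3.83 in the untreated library, the last from 16 UMIs. Cilp Eln fibroblasts had 61.6 CPM in the CO hydrogel library, 42.0 in the hydrogel library and 9.72 in the untreated library, the last from 7 UMIs. The neutrophil-like level was 4.86 CPM in the CO hydrogel library, 1.14 in the hydrogel library and 0.0859 in the untreated library. With cells thinned to 1000 UMIs, which left out 89 cells of the CO hydrogel, 20 of the hydrogel and 42 of the untreated library, fibroblast-like cells had a Gpc3 UMI at a share of 5.29% in the CO hydrogel library, 2.33% in the hydrogel library and 0.791% in the untreated library. Unthinned it was 27.2% in the CO hydrogel library, 17.9% in the hydrogel library and 4.92% in the untreated library. Among neutrophil-like cells, thinned with 89 cells of the CO hydrogel, 110 of the hydrogel and 211 of the untreated library left out, the share was 0.538% in the CO hydrogel library, 0.111% in the hydrogel library and 0.0185% in the untreated library, and their median depth was 1309 UMIs in the CO hydrogel, 1806 in the hydrogel and 1951 in the untreated library. Fibroblast-like cells were thus above the neutrophil-like share in each library at equal depth. Taking the mean of per-cell levels lowered the log2 ratio to 3.18 for the CO hydrogel over untreated and 1.88 for the hydrogel over untreated, both still past 2-fold.

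Ogn, which encodes osteoglycin, a small leucine-rich protein that takes part in collagen fibril assembly, separated both treated wounds from the untreated one. Fibroblast-like cells had 248 CPM in the CO hydrogel library (interval 244 to 253), 279 CPM in the hydrogel library (interval 272 to 286) and 75.9 CPM in the untreated library (interval 72.2 to 79.8), so the treated libraries lay close together and both well above the untreated one. The CO hydrogel was 3.27-fold above untreated (log2 ratio 1.71, interval 1.63 to 1.79), the hydrogel 3.67-fold above it (log2 ratio 1.88, interval 1.80 to 1.96), and the CO hydrogel 1.12-fold below the hydrogel. Untreated cells were lowest in every subgroup, and hydrogel cells highest. The subgroup with the most Ogn was Cilp Eln, at 378 CPM in the CO hydrogel library, 512 in the hydrogel library and 283 in the untreated library. Cxcl13 Sfrp4 fibroblasts followed with 307 CPM in the CO hydrogel library, 351 in the hydrogel library and 138 in the untreated library. Dpp4 Pi16 fibroblasts had 144 CPM in the CO hydrogel library, 215 in the hydrogel library and 44.8 in the untreated library. Tnn Prss35 fibroblasts had less than the other subgroups in the treated libraries, 111 CPM in the CO hydrogel library, 179.9 in the hydrogel library and 55.7 in the untreated library. Holding the subgroup mix equal left the log2 ratio at 1.05 for the CO hydrogel over untreated, close to the 2-fold line.

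Aspn, which encodes asporin, a collagen-binding protein that can hold back TGF-beta, was the small leucine-rich gene past 2-fold between the CO hydrogel and the plain hydrogel. Fibroblast-like cells had 457 CPM in the CO hydrogel library (interval 451 to 463), 173 CPM in the hydrogel library (interval 168 to 179) and 307 CPM in the untreated library (interval 299.5 to 315). The CO hydrogel level was 2.64-fold above the hydrogel level (log2 ratio 1.40, interval 1.35 to 1.45) and within 2-fold of the untreated level (log2 ratio 0.57), while the hydrogel lay below untreated (log2 ratio -0.83). Under the 10 alternatives the log2 ratio of the CO hydrogel over the hydrogel ranged from 1.05, close to the 2-fold line, to 1.58. In each of the 4 subgroups the CO hydrogel library had more Aspn than the hydrogel library. The difference was past 2-fold in Cxcl13 Sfrp4 fibroblasts, at 431 CPM in the CO hydrogel library, 179.9 in the hydrogel library and 191 in the untreated library. It was past 2-fold also in Cilp Eln fibroblasts, where Aspn was highest, at 943 CPM in the CO hydrogel library, 359 in the hydrogel library and 554 in the untreated library. In Dpp4 Pi16 fibroblasts the levels were 389 CPM in the CO hydrogel library, 238 in the hydrogel library and 410.0 in the untreated library, so there the hydrogel value was below both others, by less than 2-fold. Tnn Prss35 fibroblasts had the lowest levels, 204 CPM in the CO hydrogel library, 117 in the hydrogel library and 114 in the untreated library. With each library clustered by itself the Cxcl13 Sfrp4 log2 ratios became 0.99 for the CO hydrogel over the hydrogel and 0.75 over untreated. Of fibroblast-like cells thinned to 1000 UMIs, 28.8% in the CO hydrogel library, 14.0% in the hydrogel library and 22.1% in the untreated library had an Aspn UMI, and unthinned 69.5% in the CO hydrogel library, 57.1% in the hydrogel library and 68.7% in the untreated library. In thinned neutrophil-like cells that share was 2.15% in the CO hydrogel library, 0.517% in the hydrogel library and 0.462% in the untreated library.

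Prelp, whose protein anchors basement membranes to connective tissue by binding heparan sulfate and collagen, ran the other way. Fibroblast-like cells had 185 CPM in the CO hydrogel library (interval 181 to 189), 149.9 CPM in the hydrogel library (interval 145 to 155) and 393 CPM in the untreated library (interval 384 to 401), so both treated wounds were lower than the untreated one. The CO hydrogel was 2.12-fold below untreated (log2 ratio -1.09, interval -1.13 to -1.04) and the hydrogel 2.62-fold below it (log2 ratio -1.39, interval -1.45 to -1.33). In Dpp4 Pi16 fibroblasts, which were 49.5% of untreated fibroblast-like cells, Prelp was at 247 CPM in the CO hydrogel library, 336 in the hydrogel library and 545 in the untreated library. In Cxcl13 Sfrp4 fibroblasts it was at 201 CPM in the CO hydrogel library, 216 in the hydrogel library and 364 in the untreated library. Tnn Prss35 fibroblasts had little of the transcript, with 12.5 CPM in the CO hydrogel library, 10.3 in the hydrogel library and 31.8 in the untreated library. In neutrophil-like cells it was at 19.4 CPM in the CO hydrogel library, 5.33 in the hydrogel library and 6.62 in the untreated library, so Prelp was not compared in that subgroup. Cilp Eln fibroblasts, with 302 CPM in the CO hydrogel library, 394 in the hydrogel library and 287 in the untreated library, did not have the order of the other subgroups. The CO hydrogel over untreated ratio lay inside 2-fold under 3 of 10 alternatives, at a log2 ratio of -0.74 with each library clustered by itself, -0.87 with the subgroup mix held equal and -0.92 as a mean over cells. The hydrogel over untreated ratio stayed past 2-fold under 9 of 10, but was -0.70 in Dpp4 Pi16 and -0.75 in Cxcl13 Sfrp4 fibroblasts. For the CO hydrogel over the hydrogel the log2 ratio was 0.30 in the class. Within subgroups it was -0.44 in Dpp4 Pi16, -0.11 in Cxcl13 Sfrp4 and -0.38 in Cilp Eln fibroblasts.

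Dcn, Lum and Bgn, the abundant members, differed less than 2-fold between any 2 libraries in fibroblast-like cells as a whole. Decorin transcripts were lowest with the hydrogel, at a log2 ratio of 0.54 for the CO hydrogel over the hydrogel and -0.70 for the hydrogel over untreated. Over the 4 subgroups Dcn ranged from 8899 to 12582 CPM in the CO hydrogel library, from 7360.3 to 10099 in the hydrogel library and from 9821 to 15743 in the untreated library. Lumican differed within one subgroup. Cxcl13 Sfrp4 fibroblasts had 4539 CPM in the CO hydrogel library (interval 4511 to 4568), 2181 CPM in the hydrogel library (interval 2149.8 to 2212) and 6082 CPM in the untreated library (interval 6011 to 6153), which put the hydrogel below both others. The CO hydrogel was 2.08-fold above the hydrogel (log2 ratio 1.06, interval 1.04 to 1.08), and the hydrogel was 2.79-fold below untreated (log2 ratio -1.48, interval -1.51 to -1.45). The first of these lay inside 2-fold under 4 of 9 alternatives, the lowest log2 ratio being 0.87 with no doublets removed. Tnn Prss35 fibroblasts had the most Lum in the CO hydrogel and hydrogel libraries, at 6499 CPM in the CO hydrogel library and 5322 in the hydrogel library, next to 5639 in the untreated library. Biglycan, which also signals to innate immune receptors when released, stood in fibroblast-like cells at 1727 CPM in the CO hydrogel library, 1828 in the hydrogel library and 1247 in the untreated library. It was highest in Cilp Eln fibroblasts, with 2956 CPM in the CO hydrogel library, 2674 in the hydrogel library and 2934 in the untreated library, and lowest in Dpp4 Pi16 fibroblasts, with 1082 CPM in the CO hydrogel library, 1243 in the hydrogel library and 837 in the untreated library. 

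Fmod, the gene of fibromodulin, which guides collagen fibril maturation, was rare and uneven in fibroblasts. Fibroblast-like cells had 9.8 CPM in the CO hydrogel library (interval 8.92 to 10.7), 13.9 CPM in the hydrogel library (interval 12.4 to 15.5) and 5.73 CPM in the untreated library (interval 4.75 to 6.86), from 454, 320 and 120 UMIs in the CO hydrogel, hydrogel and untreated libraries. The log2 ratio of the CO hydrogel over untreated was 0.77, and it turned to -0.57 with the subgroup mix held equal and reached 1.03 with each library clustered by itself, so no direction is read from it. The 1% of cells with the most Fmod held 78.9% of these UMIs in the CO hydrogel library (49 cells), 50.6% in the hydrogel library (17 cells) and 49.2% in the untreated library (12 cells). Its level was highest in Cilp Eln fibroblasts, at 49.0 CPM in the CO hydrogel library, 88.1 in the hydrogel library and 33.3 in the untreated library, the last from 24 UMIs. In the other subgroups it was at most 11.3 CPM. In Cxcl13 Sfrp4 fibroblasts the log2 ratio of the hydrogel over untreated was -1.05, and with no doublets removed it turned to 0.43. In Tnn Prss35 fibroblasts that of the CO hydrogel over the hydrogel was -1.17, and with each library clustered by itself it turned to 0.55, so no direction is read in these subgroups.

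Vcan in fibroblasts was highest in the Dpp4 Pi16 subgroup of all 3 libraries, with 1549 CPM in the CO hydrogel library (interval 1521 to 1576), 2615 CPM in the hydrogel library (interval 2540.1 to 2691) and 1902 CPM in the untreated library (interval 1877 to 1927). The hydrogel value was the highest there, at a log2 ratio of -0.76 for the CO hydrogel over the hydrogel. Tnn Prss35 fibroblasts had the lowest level in each library, 647 CPM in the CO hydrogel library, 563 in the hydrogel library and 744 in the untreated library. Cxcl13 Sfrp4 fibroblasts had 1051 CPM in the CO hydrogel library, 1387 in the hydrogel library and 1085 in the untreated library. In Cilp Eln fibroblasts, near the Tnn Prss35 level with the CO hydrogel, Vcan was at 665 CPM in the CO hydrogel library, 802 in the hydrogel library and 934 in the untreated library. Over all fibroblast-like cells the levels were 990.0 CPM in the CO hydrogel library, 1058 in the hydrogel library and 1455 in the untreated library, with no pair of libraries 2-fold apart. Holding the subgroup mix equal turned the log2 ratio of the hydrogel over untreated to 0.26, against -0.46 with the mix as it was.

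**Figure D3:**
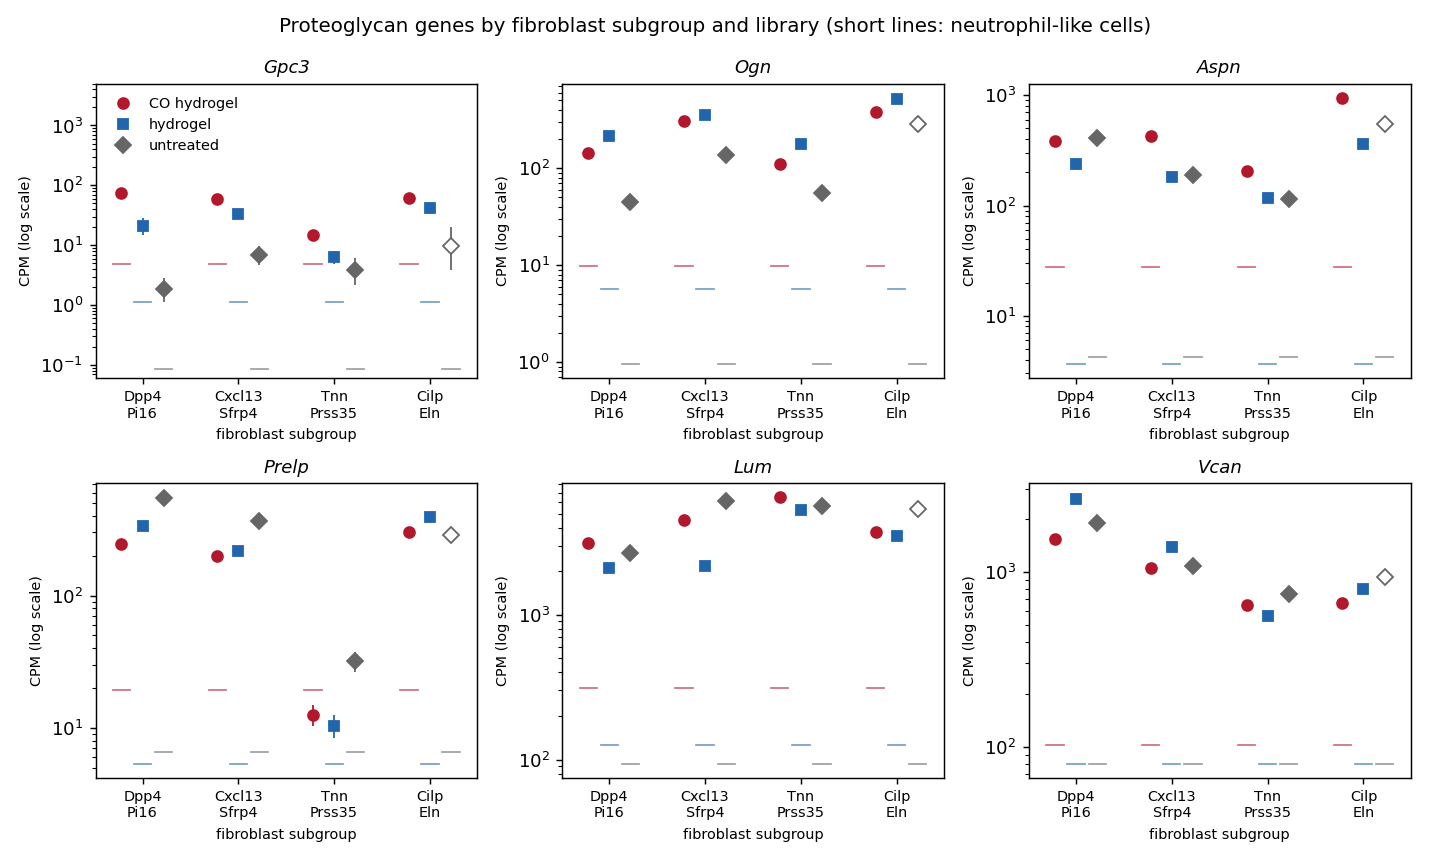
CPM on a logarithmic axis of 6 genes in the 4 fibroblast subgroups, with 95% intervals for counting error and short lines at the level of neutrophil-like cells of the same library. Open points are the 46 untreated Cilp Eln fibroblasts. Gpc3 descends through CO hydrogel, hydrogel and untreated in every subgroup, Ogn is lowest in the untreated library throughout, and Prelp drops to near the lines in Tnn Prss35 fibroblasts. For Gpc3 in Tnn Prss35 fibroblasts the hydrogel and untreated libraries are not apart by counting error.

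Mural-like cells, 1165 in the CO hydrogel, 987 in the hydrogel and 607 in the untreated library, had all 9 mural markers above 10 CPM in each library. Bgn was their main proteoglycan transcript of the 9, with 2135 CPM in the CO hydrogel library (interval 2100.3 to 2169.6), 1889.8 CPM in the hydrogel library (interval 1859 to 1921) and 1898 CPM in the untreated library (interval 1863 to 1933), and no pair of libraries differed by more than a log2 ratio of 0.18. Of the genes above background Aspn was next, with 182 CPM in the CO hydrogel library, 103 in the hydrogel library and 114 in the untreated library, higher with CO but inside 2-fold. Of the 5 genes above background with both hydrogels none was at least 2-fold apart between them, where 1.11% of measured genes were. Of 4 genes readable against the untreated library, Fmod and Ogn were past 2-fold in both comparisons, where 3.5% of genes were for the CO hydrogel and 2.81% for the hydrogel. Mural Fmod was at 49.6 CPM in the CO hydrogel library (interval 44.5 to 55.2), 44.6 CPM in the hydrogel library (interval 40.1 to 49.6) and 3.76 CPM in the untreated library (interval 2.39 to 5.65), from 340, 349 and 23 UMIs in the CO hydrogel, hydrogel and untreated libraries. Mural Ogn was at 25.5 CPM in the CO hydrogel library, 18.4 in the hydrogel library and 5.73 in the untreated library, from 175, 144 and 35 UMIs in those libraries. The 1% of mural-like cells with the most Ogn held 28% of these UMIs in the CO hydrogel library (12 cells) and 36.1% in the hydrogel library (10 cells). Dcn in mural-like cells, at 927 CPM in the CO hydrogel library, 244 in the hydrogel library and 412 in the untreated library, did not pass 2 times the neutrophil-like level. Nor did Lum, at 243 CPM in the CO hydrogel library, 129 in the hydrogel library and 161 in the untreated library, or Vcan, at 107 CPM in the CO hydrogel library, 125 in the hydrogel library and 96.7 in the untreated library. Of the 8 fibroblast markers 6, 6 and 5 were above 10 CPM in mural-like cells of the CO hydrogel, hydrogel and untreated libraries. Their summed level was 17938 CPM in the CO hydrogel library, 14502 in the hydrogel library and 8879 in the untreated library, and its part in the mural values was not tested.

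At a finer resolution the mural-like cells split into 2 pericyte-like clusters and a smooth muscle-like cluster led by Myh11, the smooth muscle myosin heavy chain gene. The smooth muscle-like cluster held 130 cells of the CO hydrogel, 125 of the hydrogel and 16 of the untreated library. Fmod there was at 311 CPM in the CO hydrogel library, 334 in the hydrogel library and 81.9 in the untreated library, the last from 13 UMIs, and these cells carried 85.9% of mural Fmod UMIs in the CO hydrogel, 88.3% in the hydrogel and 56.5% in the untreated library. In the pericyte-like clusters Fmod was between 1.00 and 13.5 CPM. Without the smooth muscle-like cells, a choice made after the values were seen, mural Fmod stood at 8.11 CPM in the CO hydrogel, 5.94 in the hydrogel and 1.68 in the untreated library, from 58 UMIs over the CO hydrogel and untreated libraries and 51 over the hydrogel and untreated libraries. Both are under the 100 UMIs asked for elsewhere, so the ratios are given as descriptions only. The log2 ratio was then 2.27 for the CO hydrogel over untreated, against 3.72 with all mural-like cells, and 1.82 for the hydrogel over untreated, against 3.57. Aspn was also highest in smooth muscle-like cells, at 376 CPM in the CO hydrogel library, 231 in the hydrogel library and 252 in the untreated library, and Prelp was at 159 CPM in the CO hydrogel library, 133 in the hydrogel library and 44.1 in the untreated library. Bgn, in contrast, was higher in the pericyte-like clusters than in smooth muscle-like cells of each library, with 1964 CPM in the CO hydrogel library, 1691 in the hydrogel library and 2164 in the untreated library for the cluster led by Vtn. For the cluster led by Tnnt2 it was 2631 CPM in the CO hydrogel library, 2197 in the hydrogel library and 1477 in the untreated library. In that second pericyte-like cluster Dcn was at 1954 CPM in the CO hydrogel library, 374 in the hydrogel library and 399 in the untreated library. The neutrophil-like level beside it was 498, 187 and 207 CPM in the CO hydrogel, hydrogel and untreated libraries, so only the CO hydrogel value passed 2 times that level and Dcn was not compared there. The same cluster had Col1a1, a fibrillar collagen gene, at 20704 CPM in the CO hydrogel library, 14985 in the hydrogel library and 7299 in the untreated library. Mural Ogn lay mainly in the cluster led by Vtn, at 37.3 CPM in the CO hydrogel, 42.7 in the hydrogel and 8.26 in the untreated library. In the cluster led by Tnnt2 it was at 5.40, 3.26 and 1.45 CPM in those libraries, under 2 times the neutrophil-like level in each. In smooth muscle-like cells it was at 39.5, 7.59 and 0 CPM.

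**Figure D4:**
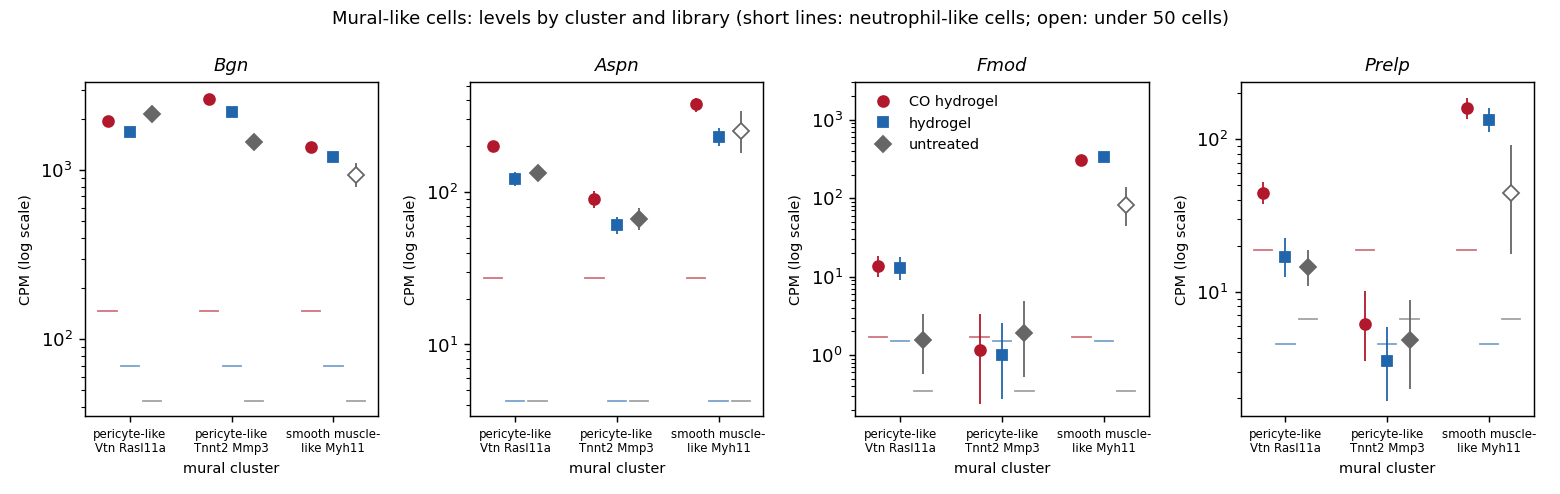
CPM on a logarithmic axis of Bgn, Aspn, Fmod and Prelp in the 3 mural clusters, with 95% intervals for counting error and short lines at the neutrophil-like level. Open points are the 16 untreated smooth muscle-like cells. Fmod and Prelp stand out in the smooth muscle-like cluster, and Bgn is at 938 CPM or more in all 3.

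Vcan was the only one of the 9 above background in myeloid cells. The monocyte-like cluster, led by Fcnb, numbered 444 cells in the CO hydrogel, 631 in the hydrogel and 585 in the untreated library. It had 3427 CPM in the CO hydrogel library (interval 3332 to 3524), 3526 CPM in the hydrogel library (interval 3459 to 3594) and 4178 CPM in the untreated library (interval 4110.2 to 4247), which is 33.6, 44.2 and 52.0 times the neutrophil-like level of the CO hydrogel, hydrogel and untreated libraries. No fibroblast subgroup reached these levels. Of the 7 listed monocyte markers 6, 7 and 7 were above 10 CPM in monocyte-like cells of the CO hydrogel, hydrogel and untreated libraries. Of 9 neutrophil markers 6 were above 10 CPM there in each library. The neutrophil markers summed to 4926 CPM in the CO hydrogel library, 6164 in the hydrogel library and 6815 in the untreated library. The monocyte markers summed to 5699 CPM in the CO hydrogel library, 6962 in the hydrogel library and 5545 in the untreated library, where the neutrophil markers thus summed higher. The part of the neutrophil markers' transcripts in the Vcan values was not tested. No pair of libraries was 2-fold apart in Vcan, at log2 ratios of -0.04 for the CO hydrogel over the hydrogel, -0.29 for the CO hydrogel over untreated and -0.24 for the hydrogel over untreated, where 1.69%, 5.7% and 3.67% of measured genes were in those comparisons. With monocyte-like cells thinned to 1000 UMIs, which left out 44 cells of the CO hydrogel, 12 of the hydrogel and 18 of the untreated library, the share with a Vcan UMI was 73% in the CO hydrogel library, 76.4% in the hydrogel library and 89.1% in the untreated library. Unthinned it was 76.1% in the CO hydrogel library, 84.3% in the hydrogel library and 97.1% in the untreated library. In thinned neutrophil-like cells that share was 8.6% in the CO hydrogel library, 6.94% in the hydrogel library and 7.06% in the untreated library. Dcn in monocyte-like cells was at 274 CPM in the CO hydrogel library, 86.0 in the hydrogel library and 101 in the untreated library, below the neutrophil-like level in each library, and so were Lum, Bgn, Fmod, Ogn, Aspn, Prelp and Gpc3.

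The other myeloid cells are the myeloid clusters not called monocyte-like, here called macrophage clusters. Taken as a whole class, these cells had a Vcan level graded by wound. They had 367 CPM in the CO hydrogel library (interval 358 to 376), 739 CPM in the hydrogel library (interval 730.2 to 748) and 1669 CPM in the untreated library (interval 1648 to 1690.0), with intervals apart. The log2 ratio was -1.01 for the CO hydrogel over the hydrogel, -2.19 for the CO hydrogel over untreated and -1.17 for the hydrogel over untreated, so Vcan, the 1 readable gene, was past 2-fold lower in all 3 comparisons, where 7.89%, 7.27% and 6.25% of measured genes were 2-fold apart. The macrophage clusters were mixed differently in each library, so the levels are given by cluster. The Csf3 Ereg cluster, the one with the most Vcan, was 29 of 2906 of these cells in the CO hydrogel library. It was 665 of 4109 in the hydrogel library and 593 of 1678 in the untreated library. The part of this mix in the class ratios was not tested. The cluster led by Gsta1 and Trem2, a lipid receptor gene, had 235 CPM in the CO hydrogel library, 478 in the hydrogel library and 963 in the untreated library. In the cluster led by Cd163 and Lyve1, genes of resident macrophages, the levels were 158 CPM in the CO hydrogel library, 319 in the hydrogel library and 755 in the untreated library. The Gsta1 Trem2 cluster thus kept the order of the whole class. The Cd163 Lyve1 values had that order too, but the CO hydrogel value did not pass 2 times the neutrophil-like level, so it was not compared. The Cd74 Ms4a7 cluster had 776 CPM in the CO hydrogel library, 797 in the hydrogel library and 1228 in the untreated library, with the treated libraries close together and below the untreated one. The Csf3 Ereg cluster, the highest macrophage cluster in each library, had 2092 CPM in the CO hydrogel library, 1785 in the hydrogel library and 2686 in the untreated library, the first from 29 cells. The Cxcl11 Ass1 cluster had 1096 CPM in the CO hydrogel library, 576 in the hydrogel library and 1215 in the untreated library, from 20, 727 and 15 cells of those libraries. In neither the Csf3 Ereg nor the Cxcl11 Ass1 cluster was the CO hydrogel value below the hydrogel value. Only the CO hydrogel over untreated difference of the class stayed past 2-fold under all 9 alternatives, with log2 ratios of -2.32 to -1.43. The CO hydrogel over hydrogel ratio ranged from -1.27 to -0.67 and the hydrogel over untreated ratio from -1.27 to -0.57. In monocyte-like cells, whose border with the macrophages moves with the clustering, the Vcan ratios ranged from -0.15 to 0.80 for the CO hydrogel over the hydrogel, from -0.59 to 0.11 for the CO hydrogel over untreated and from -0.86 to 0.03 for the hydrogel over untreated, so no direction is read there.

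**Figure D5:**
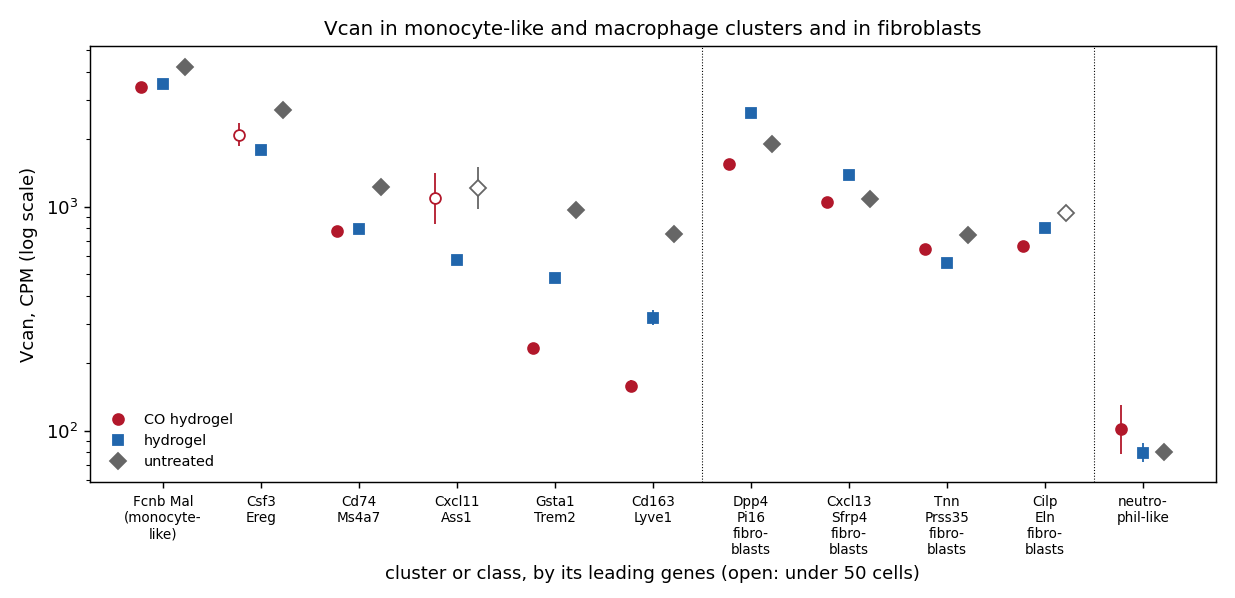
Vcan CPM on a logarithmic axis in the monocyte-like and macrophage clusters (left), the fibroblast subgroups (middle) and neutrophil-like cells (right), with 95% intervals for counting error. Open points come from under 50 cells. The monocyte-like cluster is highest in each library, and in the Gsta1 Trem2 and Cd163 Lyve1 clusters the level is lowest with the CO hydrogel and highest in the untreated wound. The CO hydrogel value of the Cd163 Lyve1 cluster is under 2 times the neutrophil-like level.

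Across 20 profiles, the 4 fibroblast subgroups, mural-like, monocyte-like and other myeloid cells of each library except the untreated Cilp Eln fibroblasts, the genes with the most similar levels to each member were found by Pearson correlation of log2(CPM + 1). The profiles share libraries and depth, so the values are descriptions. Dcn and Lum were among each other's nearest genes, at 0.98. For Dcn the 3 were Tpbg (0.99), Lum (0.98), Prrx2 (0.98), and for Lum Thbs2 (0.99), Dcn (0.98), Gxylt2 (0.98). For Bgn they were Col6a2 (0.99), Tshz3 (0.99), Col6a1 (0.99), of which Col6a1 and Col6a2 encode collagen VI chains. The nearest genes to Aspn were Efs (0.99), Prnp (0.98), Reck (0.98), to Ogn Zfp521 (0.98), Mfap2 (0.97), Gpx3 (0.97), and to Prelp Ackr3 (0.98), Sod3 (0.98), Igfbp6 (0.97). Fmod had Tmem200a (0.94) and Slc29a1 (0.90), and Gpc3 had Tc2n (0.93), Tac3 (0.92), Angptl1 (0.92). Vcan stood apart from the other 8, with correlations from -0.60 with Fmod to 0.17 with Gpc3, and its nearest genes were Ptgs2 (0.94), Ca5b (0.90), Metrnl (0.90). Bgn and Aspn, both present in mural-like cells, correlated at 0.95.

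Other genes of proteoglycan biology were read in fibroblast-like cells from lists chosen with earlier results of these data known. Of 32 further core protein genes 28 were listed and 17 measured. Of all measured genes 3.65% were past 2-fold for the CO hydrogel over the hydrogel, 9.11% for the CO hydrogel over untreated and 7.35% for the hydrogel over untreated, and the counts of each list stand against these shares. For the CO hydrogel over the hydrogel 0 of the cores were past 2-fold higher and 2 lower, with a median log2 ratio of -0.45 against -0.01 for all genes. For the CO hydrogel over untreated 3 were higher and 2 lower (median 0.06, all genes 0.15), and for the hydrogel over untreated 4 were higher and 0 lower (median 0.36, all genes 0.14). Prg4, the gene of the joint lubricant lubricin, was graded, at 80.1 CPM in the CO hydrogel library, 313 in the hydrogel library and 611 in the untreated library. Keratocan (Kera), the neighbour of Lum in the genome, was rare, at 10.1 CPM in the CO hydrogel library, 8.36 in the hydrogel library and 2.68 in the untreated library. Podnl1, a further leucine-rich repeat gene and a leading gene of the Tnn Prss35 subgroup, was at 18.2 CPM in the CO hydrogel library, 33.4 in the hydrogel library and 8.55 in the untreated library. Srgn, the core protein gene of a proteoglycan in granules of blood cells, was at 9.6 CPM in the CO hydrogel library, 42.9 in the hydrogel library and 81.2 in the untreated library. It was over 5 times higher in another cell class, as were Cspg4 and Esm1, whose levels here were at most 11.7 CPM. Of 31 measured genes that build the sugar chains 0 were past 2-fold between the CO hydrogel and the hydrogel (median 0.09). Against untreated 3 were lower with the CO hydrogel (median 0.18), namely Ugdh, Csgalnact1 and Chst1, and 1 of 30, Ugdh, with the hydrogel (median -0.02). The 3 of 31 are near the 9.11% of all genes and the 1 of 30 below the 7.35%, so the counts say nothing particular of the sugar chain genes. Ugdh, which makes UDP-glucuronic acid for hyaluronan and sulfated chains alike, was at 373 CPM in the CO hydrogel library, 527 in the hydrogel library and 1072 in the untreated library. Csgalnact1, which starts chondroitin chains, was at 45.5 CPM in the CO hydrogel library, 71.6 in the hydrogel library and 91.0 in the untreated library.

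Among 14 measured genes for cleavage and sulfate removal 1 was past 2-fold between the CO hydrogel and the hydrogel, the collagenase gene Mmp13, higher with CO, at 88.1 CPM in the CO hydrogel library, 40.5 in the hydrogel library and 17.9 in the untreated library. The list's median log2 ratio was 0.02 there. Against untreated 3 were higher and 1 lower with the CO hydrogel (median 0.30), and 3 were higher and 0 lower with the hydrogel (median 0.03), where 9.11% and 7.35% of all genes were past 2-fold in those comparisons. The widest against untreated was Mmp3, the gene of stromelysin, a protease that cleaves proteoglycans, at 161 CPM in the CO hydrogel library, 107 in the hydrogel library and 14.0 in the untreated library. Adamts5, a gene for a protease that cuts versican and aggrecan, was at 49.0 CPM in the CO hydrogel library, 54.8 in the hydrogel library and 102 in the untreated library, and Adamts4, of the same family, had a log2 ratio of 1.02 for the hydrogel over untreated. Mmp13, Adamts4 and Adamts9 were over 5 times higher in another cell class, and so was Mmp3 in the comparison of the hydrogel with untreated. Adamts5 is among the leading genes of the Dpp4 Pi16 subgroup. The list of partner genes holds genes of collagens, growth factors and matrix proteins, and the hyaluronan synthase genes Has1 and Has2. Of its 18 measured genes 1 was past 2-fold higher in the CO hydrogel than in the hydrogel library, Tgfb3. It was at 21.0 CPM in the CO hydrogel library, 7.75 in the hydrogel library and 9.89 in the untreated library. The list's median log2 ratio was -0.05 for the CO hydrogel over the hydrogel. Against untreated the CO hydrogel had 2 higher, Tgfb3 and elastin (Eln), and 1 lower, fibrillin 1 (Fbn1), with a median of 0.14. The hydrogel had 1 of 17 higher, Eln, and 2 lower, Fbn1 and fibronectin (Fn1), with a median of -0.03. Of all genes 9.11% and 7.35% were past 2-fold in the CO hydrogel and the hydrogel comparison with untreated. Fbn1, whose microfibrils bind versican, was at 1694 CPM in the CO hydrogel library, 1004 in the hydrogel library and 3746 in the untreated library, and it is also a leading gene of the Dpp4 Pi16 subgroup, 49.5% of untreated fibroblast-like cells. Levels of Eln were 206 CPM in the CO hydrogel library, 231 in the hydrogel library and 87.3 in the untreated library, and it helped to define the Cilp Eln subgroup.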

How the data were processed

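Single-cell 3' RNA libraries of day 7 wound skin were analysed, 1 for each of 3 groups. The deposited matrices hold counts, that is, raw UMIs per gene and barcode from Cell Ranger (6.0.1 per the file headers). Listed in the submitters' processing notes are build rn6, Seurat 4.2.0, DESeq 1.38.0 and a later Cell Ranger, 7.0.0. Per the labels' protocols an epidermis kit digested the tissue at 37 °C and ACK buffer removed red cells, which can change the cells recovered.

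The members, markers, gene lists and fibroblast subgroups were chosen with earlier results of these data known. Cells passed with 500 UMIs or more, 300 genes or more and no more than 20% of UMIs from mitochondrial genes. The highest Scrublet scores were removed at 0.8% per 1000 barcodes, which was 12.3% of CO hydrogel, 12.4% of hydrogel and 10.3% of untreated barcodes, and Scrublet's own threshold called 502, 307 and 0 of them. Of 43701 barcodes 36109 were kept, with medians of 5825 UMIs in the CO hydrogel, 5591 in the hydrogel and 2644 in the untreated library. Counts were scaled to 10000 per cell, and Leiden clustering at resolution 1 on 2000 variable genes (without the 9 members), 30 components and 20 neighbours gave 27 clusters. Each was named by its best marker score, if that was at least 0.2, with at least 3 markers detected in 20% of its cells and no other class leading its 10 top genes, and 2 clusters stayed unnamed. A myeloid cluster was called monocyte-like only if monocyte was its best score and a monocyte marker was among its 10 top genes. Any other myeloid cluster was called macrophage, also where monocyte was its best score. This scoring was set after the data were seen. Markers of a fibroblast subgroup counted for the fibroblast class.

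UMIs were summed per class and library, with exact Poisson intervals, and a ratio was taken where both libraries together had 100 UMIs or more, with an exact conditional binomial interval. Classes of at least 100 cells and subgroups of at least 50 entered ratios, and 2-fold was the size called. Reading only members above 2 times the neutrophil-like level was decided after the values were seen. Named were all 9 members, list genes at least 2-fold apart, up to 6 per list by size, and the 3 genes most like each member, of which 1 is not reported here. The ratio and its interval were tested on simulated data. Alternatives are in the closing section. Python 3.11.15 with scanpy 1.11.5, numpy 2.4.6 and scipy 1.17.1 was used, and edgeR 4.0.16 in R 4.3.3 gave TMM factors and no test. Of the lists' genes Podn, Ecm2, Hspg2, Gpc5, Itih5 and Col6a3 had no row under that symbol and were not analysed here.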

Additional observations from a re-analysis of the deposited data

Results flagged for a closer look

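Fmod was higher with the hydrogel than without treatment in mural-like cells (log2 ratio 3.57) and lower in Cxcl13 Sfrp4 fibroblasts (log2 ratio -1.05), a gap of 4.62 between the cell types. The difference between the cell types was not tested, since each group is 1 library. The fibroblast value rests on 48 UMIs in the hydrogel and 53 in the untreated library, and its direction turned under 2 alternatives.

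Bgn was above the neutrophil-like level in endothelial-like cells, a class outside the comparisons made here. The level there was 512 CPM in the CO hydrogel library, 167 in the hydrogel library and 162 in the untreated library, and the lowest multiple of the neutrophil-like level over the 3 libraries was 2.43 and the highest 3.73.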

How the results depend on the processing

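Each ratio was recomputed under up to 10 alternatives: a stricter cell filter (1000 UMIs, 500 genes, 10% mitochondrial), no doublets removed, resolution 2, members kept among the variable genes, each library clustered by itself, scaling by TMM, averaging CPM over cells, totals without mitochondrial, ribosomal and hemoglobin genes, no minimum count with 0.5 counts added and, for fibroblast-like cells, an equal subgroup mix. Of 1106 values for 125 ratios 1067 kept their direction. Of 316 values for the 35 ratios past 2-fold 312 did, and the other 4 are Fmod: in Cxcl13 Sfrp4 fibroblasts, hydrogel over untreated, 0.43 with no doublets removed and 0.46 with each library clustered by itself; and in Tnn Prss35 fibroblasts, CO hydrogel over hydrogel, 0.26 with members kept and 0.55 with each library clustered by itself. The cause was not tested.

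The number of members at least 2-fold apart moved by more than 1.5 times as follows. In fibroblast-like cells, hydrogel over untreated, it was 2 with an equal subgroup mix in place of 4. For the CO hydrogel over untreated it was 2 in place of 3, a smaller move, with that mix and with CPM averaged over cells (Prelp lost), and with each library clustered by itself it stayed at 3 with Fmod in place of Prelp. In mural-like cells, CO hydrogel over hydrogel, it was 1 (Prelp) with each library clustered by itself in place of 0. In other myeloid cells, where Vcan alone is read, it was 0 in place of 1 for the CO hydrogel over the hydrogel with the stricter filter, no doublets removed, resolution 2, members kept, the mean of per-cell CPM and totals without mitochondrial, ribosomal and hemoglobin genes. For the hydrogel over untreated it was 0 with no doublets removed, resolution 2, members kept and each library clustered by itself. TMM factors shifted fibroblast-like log2 ratios by -0.15 for the CO hydrogel over untreated and by -0.17 for the hydrogel over untreated, and turned no called member. Clustering each library by itself moved Tnn Prss35 ratios, Ogn reaching 2.94 and Aspn 2.94 for the CO hydrogel over untreated, against 1.00 and 0.83.

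No paired analysis was possible because each group has 1 library. Depth limits Gpc3, with 76 untreated fibroblast UMIs, and Fmod, with 23 untreated mural UMIs, in particular.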
